A study of Homo sapiens with 4 samples.

Results

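A set of 10 genes that report on and restrain the ERK pathway was followed in HEL cells after knockdown of AFF4. They are the transcription factors EGR1 and EGR3, their co-repressor NAB2, the dual-specificity phosphatases DUSP4, DUSP5 and DUSP6, the Sprouty proteins SPRY1, SPRY2 and SPRY4, and the Sprouty-related protein SPRED1. They were chosen by symbol, with earlier results of these data known. All 10 were found among the 28103 symbols of the deposited count table. HEL is a human erythroleukaemia line, and its labels name the cell type as an erythroblast. Poly(A) RNA was sequenced from 2 libraries labelled Ctrl, with a wild-type genotype, and 2 labelled AFF4 knockdown. No treatment other than the knockdown is named for either group, and how it was made is not stated in the sources used here. The labels do not say whether the libraries came from separate cultures, and any p-value reflects just the spread between these 4, which may be technical.

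The ERK cascade carries signals from growth factor and cytokine receptors through RAS, RAF and MEK to the ERK kinases. Active ERK phosphorylates ternary complex factors that sit with SRF on CArG boxes, and genes such as EGR1 are then transcribed within minutes. The same signal induces its own brakes: NAB2 represses EGR factors, DUSP proteins dephosphorylate ERK, and Sprouty and SPRED proteins act upstream, near RAS and RAF. In erythroid and megakaryocytic cells this pathway is known for its part in growth and in the choice towards megakaryocytes. EGR1 is also a common example of a gene with paused RNA polymerase II, whose release the super elongation complex promotes. AFF4 is the scaffold of that complex.

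The promoters of 3 of these genes are shown because they hold matches to the motifs of SRF and of EGR factors. Sequences are RefSeq windows of GRCh38.p14, read 5′ to 3′ on the gene's strand, and positions count back from -1, the base before the annotated start. The EGR1 window (chr5:138465229-138465478, plus strand) held 2 CArG boxes, at -105 to -96 and -83 to -74, and 1 match to the EGR site GCGNGGGCG at -198 to -190. All of these are in capitals.
EGR1: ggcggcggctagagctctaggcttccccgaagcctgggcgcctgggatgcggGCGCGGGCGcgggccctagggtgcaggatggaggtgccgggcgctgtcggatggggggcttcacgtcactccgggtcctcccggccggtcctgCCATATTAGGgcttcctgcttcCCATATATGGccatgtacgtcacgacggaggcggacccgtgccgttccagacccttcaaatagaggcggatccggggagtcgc
The SPRY2 window (chr13:80341127-80341376, minus strand) belongs to the most upstream of 3 annotated starts of that gene. Capitals mark 2 matches to the EGR site, at -134 to -126 and, on the opposite strand, at -41 to -33. They also mark 1 match to CCGGAA, a form of the ETS site, at -142 to -137.
SPRY2: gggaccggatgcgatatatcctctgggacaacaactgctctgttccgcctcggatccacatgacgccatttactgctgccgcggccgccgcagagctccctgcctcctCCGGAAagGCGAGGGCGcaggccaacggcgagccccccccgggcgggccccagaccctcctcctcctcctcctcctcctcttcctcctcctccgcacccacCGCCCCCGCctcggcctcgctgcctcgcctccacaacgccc
A stretch of 30 bases of the NAB2 window (chr12:57089042-57089071, plus strand) is given around its EGR site, in capitals, at -62 to -54. These positions count from the RefSeq start. GENCODE, used for gene positions below, starts NAB2 further upstream, at 57088894, so there the stretch lies inside the gene. It starts SPRY2 further downstream than the RefSeq start used here, at 80340951, so the printed SPRY2 window does not reach the gene there.
NAB2: tgtgcgtcctGCGGGGGCGgaggcgcggag

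RefSeq windows of 250 bases were found for 7 of the 10 genes, with 10 windows in all because SPRY1 and SPRY2 have several starts. EGR3, DUSP4 and DUSP5 had none. Motifs were searched on both strands, and no matches of different motifs overlapped. A CArG box was found for 1 of the 7 genes, EGR1, and in 1.16% of all 35116 windows. The EGR site was found for 5 of the 7, EGR1, NAB2, SPRY1, SPRY2 and SPRY4, and in 8.42% of all windows. A gene is counted if any of its windows holds a match, whereas the share over all is per window. SPRY1 and SPRY2 also had windows without this site. In these 5 genes the windows with it were 65.6% to 81.2% G and C. The part of GC content was not tested. CCGGAA, a form of the ETS site, was found for SPRY1 and SPRY2 and in 14.5% of all windows. Other forms of that site were not searched, so the other genes, EGR1 among them, may hold them. The letters TGACGTCA (the CRE) and TGANTCA (the AP-1 site) were in 0 of the 7 genes' windows, and in 1.65% and 6.57% of all windows. A match describes the letters and not a bound site.

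Total counts ran from 14903878 to 19129008 per library. AFF4 itself was at 88.3 and 69.2 CPM (counts scaled to a common library size) in the Ctrl libraries against 18.7 and 18.9 in the knockdown, which matches the labels. Of 15 erythroid and megakaryocytic marker genes, all 15 were expressed well enough to be tested. Of them 2, HBG1 and ITGB3, fell (edgeR adjusted p under 0.05), beside 0.295% of all tested genes. Of the 15, 9 had a negative log2 fold change, beside 51.2% of all tested genes, and 6 a positive one. The positive ones were EPOR (0.76, edgeR adjusted p = 0.251), KLF1 (0.20), TAL1, ALAS2, GATA1 and GP1BA. PF4 had the lowest value (-1.01, edgeR adjusted p = 0.105). GP9 (-0.69) and HBG2 (-0.68) also missed the threshold. The summed level of the 15 was 13382 to 16200 CPM in Ctrl against 9928 to 9963 CPM in the knockdown. The fetal globins made up most of it, HBG1 at 3932 and 4397 against 2341 and 2242 CPM and HBG2 at 6109 and 7003 against 4138 and 4044 CPM. Markers of other cells summed to 124 to 140 CPM in Ctrl against 83.7 to 87.3 CPM in the knockdown for B and T lymphocytes, nearly all of it CD4 (121.8 and 137.5 against 81.1 and 84.3 CPM). Of that list's 8 genes 2 were tested. The next lists, with 4 of 8 and 4 of 9 genes tested, summed to 62.3 to 64.9 and 58.3 to 59.7 CPM for monocytes and granulocytes, and to 56.9 to 71.7 and 47.0 to 48.0 CPM for fibroblasts and epithelium. LYZ made up most of the monocyte and granulocyte sum (59.9 and 54.3 CPM in Ctrl against 52.0 and 48.6 CPM in the knockdown). The keratin genes KRT8 and KRT18 made up most of the other sum. KRT8 was at 19.2 and 25.4 against 13.4 and 13.4 CPM, and KRT18 at 30.8 and 40.1 against 29.2 and 28.9 CPM. The T cell genes CD3D and CD3E and the fibroblast genes COL1A2, COL3A1 and DCN were at 0 counts in all 4 libraries. The part of these shifts in the results below was not tested. In bulk RNA, fewer cells of a type and less RNA per cell cannot be told apart.

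EGR1 fell in the knockdown, to less than its level in either Ctrl library. EGR1 encodes a zinc-finger transcription factor (chromosome 5, 138465490 to 138469315, plus strand, 2 exons). Its counts were 2239 and 2142 in Ctrl against 1050 and 1056 in the knockdown. Scaled for library size these were 119.9 and 143.4 CPM in Ctrl against 58.0 and 62.7 CPM in the knockdown. The groups did not overlap: the lower Ctrl library lay well above both knockdown libraries. The log2 fold change was -1.12 with an SE of 0.16 (edgeR's quasi-likelihood test, adjusted p = 0.0415), or a knockdown level of 0.459 times that of Ctrl with a 95% interval of 0.352 to 0.598. EGR1 was the 1 of the 8 tested genes that passed the test (adjusted p under 0.05), and 0 rose. Over all 13572 tested genes 0.641% passed in either direction and 0.295% passed as lower.

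The level of EGR1 lay above that of 81.2% of tested genes. Of the 2553 tested genes at least as abundant as EGR1, EGR1 itself counted, 18 fell, beside 40 of all 13572 tested genes. A log2 fold change of -1 or lower was found in 267 tested genes, 1.97% of them, and EGR1 had the 187th lowest. Over 14 other ways of processing the value lay between -1.25 and -0.99, and EGR1 passed in 10 of them. Without knockdown 1 its edgeR adjusted p was 0.543 (0.331% of all genes passed there), and without knockdown 2 it was 0.530 (0.366%). It was 0.0523 with libraries scaled by total count alone (0.545%), and 0.0732 with a filter of at least 5 CPM in 2 libraries (0.0462%). EGR1 kept its call under RLE scaling, where 0.648% of genes passed, with no filter (3.89%), and with the replicate number as a block (6.54%). Over all 14 the adjusted p lay between 3.68e-58, without Ctrl 1, and 0.543.

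**Figure D1:**
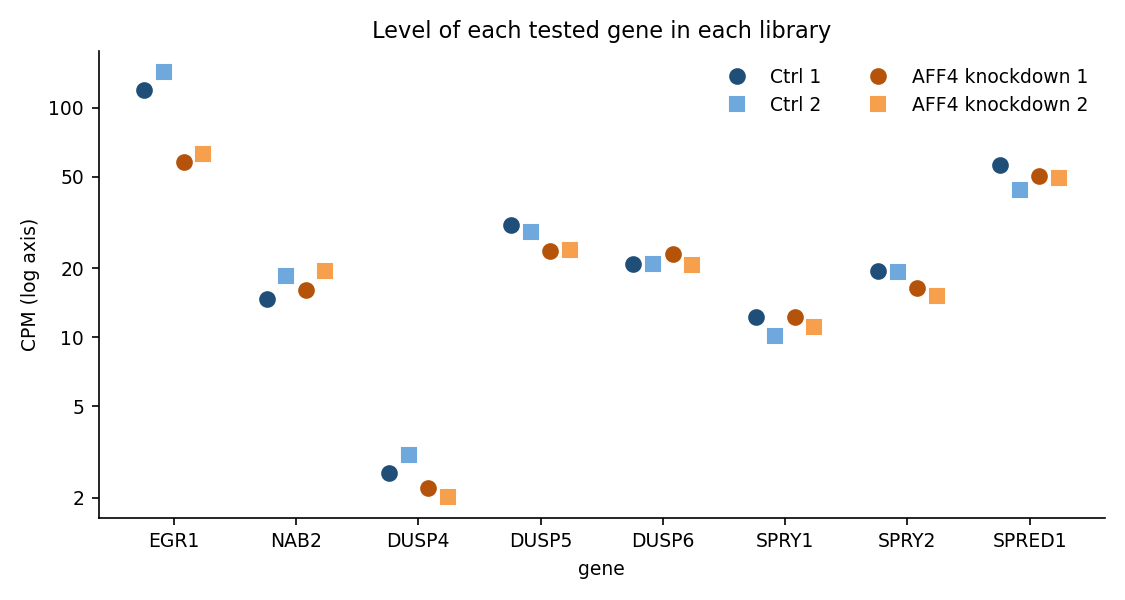
CPM (log axis) of the 8 tested genes in each of the 4 libraries. Circles are replicate 1 and squares replicate 2, blue for Ctrl and orange for AFF4 knockdown. EGR1 lay between 119.9 and 143.4 CPM in Ctrl but between 58.0 and 62.7 CPM in the knockdown, whereas NAB2, DUSP6, SPRY1 and SPRED1 overlapped between groups.

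EGR3, a zinc-finger factor of the same family, was close to silent in every library (chromosome 8, 22687659 to 22693302, minus strand). It had 2 and 1 counts in Ctrl against 2 and 2 in the knockdown. The exact 95% Poisson intervals of these counts, which cover counting error only, reach from 0.00169 to 0.429 CPM. A difference between groups was not detectable at this depth, and EGR3 did not enter the test. Of the other family members, EGR2 lay between 0.335 and 0.653 CPM, and EGR4 was at 0 counts in all 4 libraries. Of the 4 EGR genes, EGR1 was the 1 that passed the filter on low counts.

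NAB2, the co-repressor that binds EGR1 and is itself known as a target of EGR1, did not pass the test (chromosome 12, 57088894 to 57095476, plus strand). It was at 14.6 and 18.5 CPM in Ctrl against 16.1 and 19.4 CPM in the knockdown, so the groups overlapped. The log2 fold change was 0.10 ± 0.21 (SE; edgeR adjusted p = 0.897), with a 95% interval of -0.40 to 0.60. NAB2 holds the EGR site printed above. NAB2 shares 69 exonic bases with STAT6 on the opposite strand. Whether counting used strand is not known from the sources used here, so reads of that stretch cannot be told apart. STAT6 had 1624 and 1707 counts in Ctrl against 1724 and 1699 in the knockdown, more than the 273 to 326 counts of NAB2. The partner NAB1 lay at 98.2 and 76.9 CPM in Ctrl against 85.2 and 84.9 CPM in the knockdown and missed the threshold (edgeR adjusted p = 0.943). Without Ctrl 1 the sign of NAB2 turned to -0.06 and that of NAB1 to 0.15. NAB2 had -0.04 without knockdown 2 and passed in none of the alternatives. NAB1 passed without Ctrl 2 (-0.21; edgeR adjusted p = 0.0129), where 48.4% of all tested genes passed.

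Among the phosphatases, DUSP5 and DUSP4 lay lower in both knockdown libraries and DUSP6 did not, and 0 of the 3 passed the test. DUSP5 is a nuclear phosphatase specific to ERK (chromosome 10, 110497838 to 110511544). It was at 31.0 and 28.7 CPM in Ctrl against 23.8 and 24.1 CPM in the knockdown. Its log2 fold change was -0.32 ± 0.17 (SE; edgeR adjusted p = 0.464), with a 95% interval of -0.72 to 0.09. The groups of DUSP5 did not overlap. A separation of this kind, with both knockdown libraries below both Ctrl libraries, was found in 23% of all tested genes.

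DUSP4, an inducible nuclear phosphatase that acts on several MAP kinases, was the lowest of the tested genes (chromosome 8, 29333064 to 29350668). Its counts were 48 and 46 in Ctrl against 40 and 34 in the knockdown, or 2.57 and 3.08 against 2.21 and 2.02 CPM. The log2 fold change was -0.41 ± 0.26 (SE; edgeR adjusted p = 0.538), with a 95% interval of -1.02 to 0.21. DUSP4 also did not overlap between groups, but its interval was the widest of the 8 and still held a 2-fold fall. DUSP4 had -0.54 without Ctrl 1 and -0.28 without Ctrl 2.

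DUSP6 is the cytoplasmic phosphatase of ERK and one of the most used readouts of ERK activity (chromosome 12, 89347232 to 89353271, minus strand). It was at 20.9 and 21.0 CPM in Ctrl against 23.0 and 20.6 CPM in the knockdown. The Ctrl values lay between the knockdown values. The log2 fold change was 0.06 ± 0.18 (SE; edgeR adjusted p = 0.929), with a 95% interval of -0.37 to 0.48, so a 1.5-fold change in either direction lies outside it. An annotated antisense gene shares 1875 exonic bases with DUSP6 and has no row of its own here, so antisense reads cannot be told apart from those of DUSP6. Over the 14 alternatives DUSP6 lay between 0.00 and 0.14 and did not pass in any.

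Of the Sprouty genes, SPRY2 lay lower in both knockdown libraries, SPRY1 overlapped, and SPRY4 had 1 count over the 4 libraries. Sprouty proteins are induced by receptor signalling and block its passage to RAS and RAF. SPRY2 (chromosome 13, 80335976 to 80340951) was at 19.5 and 19.2 CPM in Ctrl against 16.5 and 15.1 CPM in the knockdown. Its log2 fold change was -0.29 ± 0.18 (SE; edgeR adjusted p = 0.524), with a 95% interval of -0.72 to 0.14. The groups of SPRY2 did not overlap, a separation found on the lower side in 23% of all tested genes. SPRY2 is the gene printed above with 2 EGR sites. Of the other tested genes with an EGR site, EGR1 fell, whereas NAB2 and SPRY1 overlapped between groups. Whether these sites bear on the levels was not tested.

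SPRY1 (chromosome 4, 123396795 to 123403760) was at 12.3 and 10.1 CPM in Ctrl against 12.2 and 11.0 CPM in the knockdown. Its knockdown values lay between the Ctrl values, and the log2 fold change was 0.05 ± 0.21 (SE; edgeR adjusted p = 0.942), with a 95% interval of -0.43 to 0.53. Without Ctrl 1 it was 0.21 and without Ctrl 2 it was -0.08, and it passed in neither. SPRY4 (chromosome 5, 142310427 to 142326455) had 1 count in Ctrl 1 and 0 in the other 3 libraries. The exact 95% Poisson bound of a count of 0 reaches up to between 0.204 and 0.247 CPM in those 3 libraries, so no difference was detectable at this depth. Its antisense neighbour SPRY4-AS1 was at 0 in all 4.

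SPRED1, which brings the RAS inhibitor neurofibromin to the membrane, overlapped between groups (chromosome 15, 38252326 to 38357249). It was at 56.3 and 43.7 CPM in Ctrl against 50.3 and 49.4 CPM in the knockdown. Its log2 fold change was -0.01 ± 0.18 (SE; edgeR adjusted p = 0.993), with a 95% interval of -0.44 to 0.43. The knockdown libraries lay close together and between the Ctrl libraries. The value rested on which Ctrl library was used: it was 0.19 without Ctrl 1 and -0.18 without Ctrl 2. SPRED1 passed in 0 of the 14 alternatives.

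**Figure D2:**
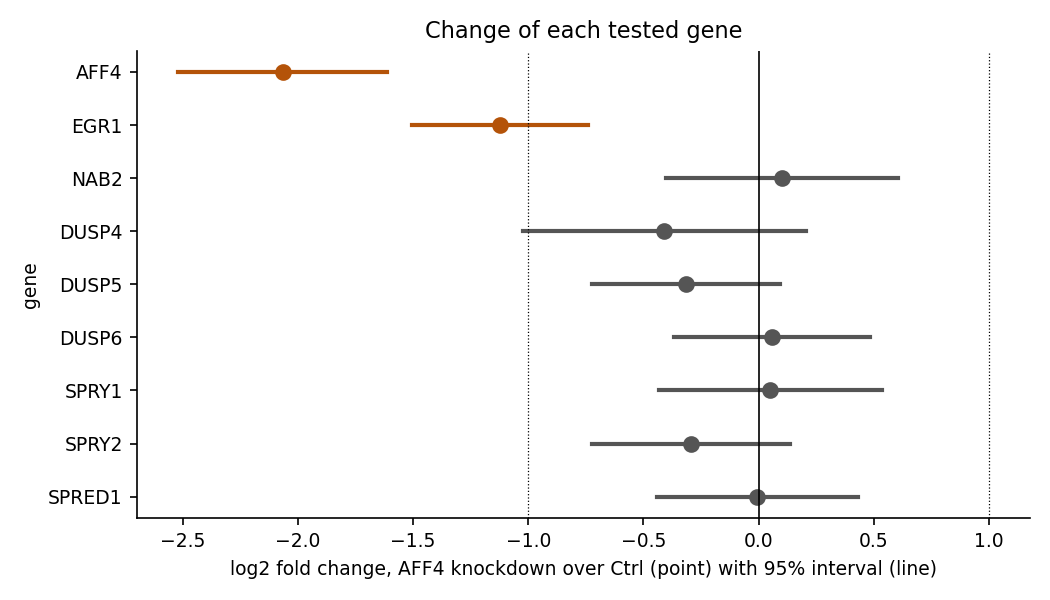
Log2 fold change of AFF4 knockdown over Ctrl (points) with 95% intervals of the edgeR model (lines) for AFF4 and the 8 tested genes. Orange marks an adjusted p under 0.05, and dotted lines mark a 2-fold change. The interval of EGR1 runs from -1.51 to -0.74, and those of the other 7 genes include 0.

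Across the 8 tested genes the median log2 fold change was -0.15, beside -0.01 over all tested genes, and 5 of 8 were negative, beside 51.2% of all. The 7 genes other than EGR1 had a median of -0.01 and ranged from -0.41 to 0.10. None of these 7 passed edgeR, DESeq2 or limma-voom, and 0 had an unadjusted p under 0.05, beside 15% of all tested genes (8.19% as lower and 6.79% as higher). In DESeq2 3.05% of genes passed (1.63% lower, 1.42% higher), and in limma-voom 0.678% (0.287% lower, 0.391% higher). The 95% interval lay within a 2-fold change in either direction for 6 of the 7, DUSP4 being the exception, and within a 1.5-fold change for DUSP6, SPRY1 and SPRED1. Of the 8 tested genes 4 lay lower in both knockdown libraries without overlap and 0 lay higher, beside 23% and 23.1% of all tested genes (46.1% on either side). EGR3 and SPRY4 are left out of these counts because they were too low to test.

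A ratio of counts within a library needs no scaling between libraries. For every count of DUSP6 there were 5.74 and 6.84 counts of EGR1 in the Ctrl libraries against 2.52 and 3.05 in the knockdown. For every count of NAB2 there were 8.20 and 7.76 in Ctrl against 3.61 and 3.24 in the knockdown. For every count of SPRED1 there were 2.13 and 3.28 in Ctrl against 1.15 and 1.27 in the knockdown. In each of the 7 ratios, DUSP4, DUSP5, SPRY1 and SPRY2 included, the lower Ctrl library exceeded the higher knockdown library. All 7 hold the same EGR1 counts, as does the ratio to summed counts below. They therefore restate the fall of EGR1 and are not separate results. For SPRY2, NAB2 and the others the lower Ctrl ratio was divided by the higher knockdown ratio. That gap was smallest for SPRY2, at 1.48 times, and largest for NAB2, at 2.15 times.

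Set against the summed counts of DUSP4, DUSP5, DUSP6, SPRY1, SPRY2 and SPRED1, EGR1 stood at 0.841 and 1.14 in the Ctrl libraries against 0.453 and 0.513 in the knockdown. The groups did not overlap. This comparison carries no test, since 2 libraries against 2 cannot give a two-sided exact permutation p below 0.333.

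**Figure D3:**
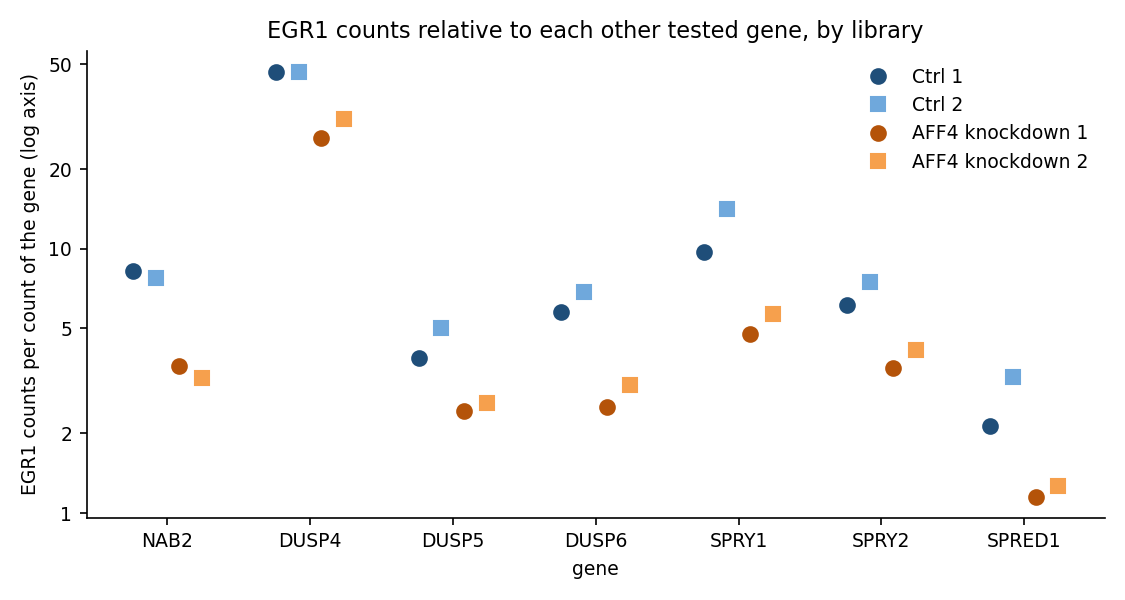
EGR1 counts per count of each of the other 7 tested genes (log axis), by library. Blue points are Ctrl and orange points AFF4 knockdown. Both Ctrl points lie above both knockdown points for every gene, for example 5.74 and 6.84 against 2.52 and 3.05 for DUSP6.

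Levels of different genes were compared per kilobase of annotated exon, using the union of GENCODE exons. In Ctrl, EGR1 was highest at 42.0 ± 5.30 CPM per kilobase (mean ± SD, n = 2), followed by DUSP5 at 11.4 ± 0.635. SPRY2, SPRED1 and NAB2 followed at 6.38 ± 0.0767, 6.05 ± 1.08 and 5.50 ± 0.907 CPM per kilobase, and the values of neighbours in this order overlapped between libraries. DUSP6 lay at 4.52 ± 0.0111 and SPRY1 at 2.83 ± 0.394 CPM per kilobase. DUSP4 was at 0.389 ± 0.0496, and EGR3 and SPRY4 were at 0.0179 and 0.00408 CPM per kilobase. In the knockdown EGR1 remained the highest of the 10 at 19.2 ± 1.06 CPM per kilobase, and DUSP5 the next at 9.17 ± 0.0789. SPRED1, NAB2 and SPRY2 followed in that order at 6.03 ± 0.0806, 5.89 ± 0.770 and 5.20 ± 0.309 CPM per kilobase, and neighbours in this order again overlapped. DUSP6, SPRY1 and DUSP4 were at 4.70 ± 0.373, 2.94 ± 0.208 and 0.291 ± 0.0187 CPM per kilobase there. The exon union may hold exons not used in HEL cells.

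The rest of the pathway was read from 7 lists with 109 genes, 86 of them tested, ordered here from the receptors inwards. These lists, too, were chosen with earlier results of these data known. Over all lists 1 gene fell and 0 rose by the edgeR test, beside 0.295% and 0.346% of all tested genes. In the list of receptor tyrosine kinases 15 of 24 genes were tested, with a median log2 fold change of 0.08. None passed edgeR, DESeq2 or limma-voom, and 0 had an unadjusted p under 0.05. Among those with the smallest p were PDGFRB (-0.56 ± 0.27) and FGFR3 (-0.44 ± 0.24; SE; edgeR adjusted p = 0.404 and 0.462). Without 1 Ctrl library the median of this list was -0.05 or 0.05, and over all alternatives FGFR3 lay between -0.75 and -0.03.

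In the core of the cascade, from the adaptor GRB2 to the ERK kinases, 14 of 18 tested genes were negative, beside 51.2% of all, with a median of -0.17. None passed edgeR or limma-voom, and 1 passed as lower in DESeq2 (MAP2K1), beside 1.63% of all. At an unadjusted p under 0.05 there were 3 lower genes, beside 8.19% of all. The same shares over all genes apply to the counts of the lists that follow. MAP2K1, the MEK1 kinase that phosphorylates ERK, was at 79.9 and 81.3 CPM in Ctrl against 40.8 and 45.7 CPM in the knockdown. Its log2 fold change was -0.90 ± 0.16 (SE; edgeR adjusted p = 0.0661), short of the threshold, and its groups lay far apart. The second MEK gene, MAP2K2, was at 43.2 and 70.8 against 50.6 and 55.9 CPM and overlapped. NRAS had -0.54 ± 0.18 and BRAF -0.49 ± 0.19 (SE; edgeR adjusted p = 0.226 and 0.289). The ERK gene MAPK3 had -0.14. Per kilobase the most abundant of the core list were the adaptor SHC1 and the phosphatase PTPN11, which favours RAS activation, at 66.5 and 59.3 CPM per kilobase in Ctrl. The list median was -0.22 without Ctrl 1 and -0.10 without Ctrl 2.

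Of the other negative regulators 17 of 20 were tested, with a median of -0.10, and 1 fell. This was CBL, the ubiquitin ligase that marks activated receptors for degradation. CBL was at 170.5 and 165.9 CPM in Ctrl against 76.7 and 77.5 CPM in the knockdown, and the groups did not overlap. Its log2 fold change was -1.13 ± 0.14 (SE; edgeR adjusted p = 0.0357), of the same size as that of EGR1. Its call was lost without knockdown 1 (edgeR adjusted p = 0.426), without knockdown 2 (0.571) and with the stricter filter (0.0573). The list median was -0.08 without Ctrl 1 or without knockdown 1, -0.18 without Ctrl 2 and -0.20 without knockdown 2. The paralogs of the phosphatases and Sprouty genes did not pass: DUSP9 had -0.98 ± 0.32, DUSP16 -0.64 ± 0.21, DUSP10 0.53 ± 0.20 and SPRY3 -0.09 ± 0.26 (SE; edgeR adjusted p = 0.223, 0.224, 0.275 and 0.927). DUSP1, DUSP2 and DUSP7 had -0.32, -0.10 and 0.10, overlapped between groups and did not pass either. These paralogs, named after their values were seen, had values of both signs. At an unadjusted p under 0.05 the whole list had 4 lower genes and 1 higher gene.

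Kinases and transcription factors that ERK acts on had a median of 0.02 over 15 tested genes. None passed edgeR or limma-voom, ELK4 was lower and ETS1 higher in DESeq2, and at an unadjusted p under 0.05 there was 1 lower (ELK4) and 2 were higher (ETS1 and ELK3). The ternary complex factors, which carry the ERK signal to CArG boxes, had values of both signs. ELK4 was at 118.5 and 90.7 CPM in Ctrl against 51.3 and 46.0 CPM in the knockdown, with -1.10 ± 0.19. ELK3 had 0.71 ± 0.20 and ELK1 0.01 ± 0.20, and the related factor ETS1 had 0.62 ± 0.14 (SE; edgeR adjusted p of ELK4, ELK3, ELK1 and ETS1 = 0.0615, 0.174, 0.995 and 0.109). Their partner SRF was at 61.4 and 99.0 CPM in Ctrl against 60.1 and 61.3 CPM in the knockdown, with -0.40 ± 0.24 (edgeR adjusted p = 0.499). The list median turned from 0.02 to -0.14 without Ctrl 1 and to -0.02 without knockdown 2, and was 0.22 without Ctrl 2 and 0.06 without knockdown 1.

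ERK-responsive output genes outside the 10 had a median of -0.42 over 11 tested of 15, and 8 of the 11 were negative. None passed edgeR, DESeq2 or limma-voom, and 3 were lower at an unadjusted p under 0.05. ETV5, an ETS factor induced by ERK, was at 48.7 and 47.1 CPM in Ctrl against 30.01 and 30.8 CPM in the knockdown, with -0.66 ± 0.16. The immediate early gene FOS was at 3.05 and 3.41 against 1.77 and 1.66 CPM, with -0.91 ± 0.26, and the ligand HBEGF had -0.76 ± 0.30 (SE; edgeR adjusted p of ETV5, FOS and HBEGF = 0.131, 0.169 and 0.300). Among these output genes Ctrl 2 exceeded Ctrl 1 by a median of 0.37 on the log2 scale. The list median was -0.55 without Ctrl 1 and -0.15 without Ctrl 2. Cyclin D1 (CCND1) lay between 0.166 and 0.603 CPM and was not tested.

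Genes described as EGR1 targets had a median of -0.39 over 8 tested of 11, with 6 negative. None passed edgeR or limma-voom, 2 were lower in DESeq2 and the same 2 were lower at an unadjusted p under 0.05. These were THBS1, an inhibitor of vessel growth (105.2 and 119.5 CPM in Ctrl against 69.1 and 69.0 CPM in the knockdown), and VEGFA, a vessel growth factor (121.8 and 140.2 against 83.5 and 81.6 CPM). Their log2 fold changes were -0.70 ± 0.15 and -0.67 ± 0.15, and the adhesion receptor ICAM1 had -0.37 ± 0.22 (SE; edgeR adjusted p = 0.0942, 0.106 and 0.499). CD44 of the same list had 0.16. The list median was -0.65 without Ctrl 1 and -0.09 without Ctrl 2. The list of EGR2, EGR4, NAB1 and WT1 had 2 tested genes, NAB1 (-0.04 ± 0.17) and WT1 (-0.30 ± 0.17; SE; edgeR adjusted p = 0.488), a zinc-finger factor that binds similar sites. Neither passed edgeR, DESeq2 or limma-voom, and 0 had an unadjusted p under 0.05.

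**Figure D4:**
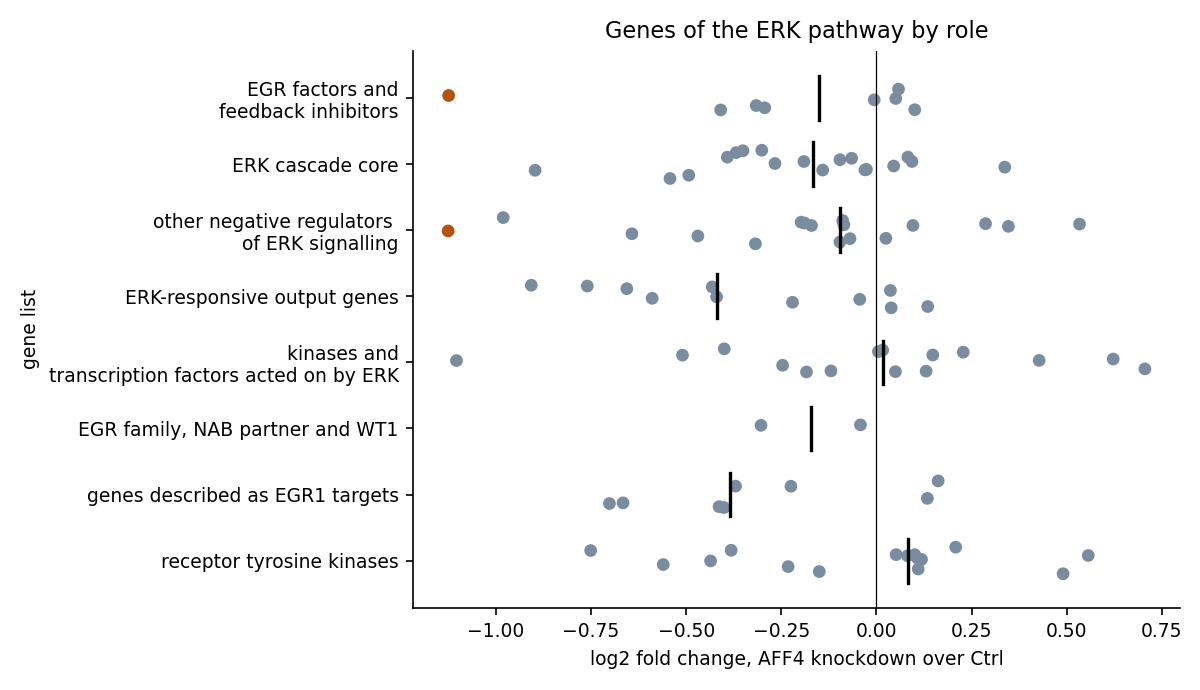
Log2 fold change of AFF4 knockdown over Ctrl for the tested genes of the 10 followed here (top row) and of each pathway list. Each point is a gene, black bars are list medians, and orange marks an edgeR adjusted p under 0.05. EGR1 (-1.12) and CBL (-1.13) are the orange points, and list medians lie between -0.42 and 0.08.

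The genes whose profile over the 4 libraries lay nearest to that of EGR1 were sought among the 7808 other tested genes of at least 20 CPM, by the Euclidean distance of centred log2 CPM. In order they were the linker histone gene HIST1H1C, the insulin-like growth factor binding protein IGFBP5, the eosinophil granule protein PRG2, the hypoxia-induced repressor BHLHE40 and the scaffold gene IQGAP3, at distances of 0.06, 0.12, 0.15, 0.16 and 0.18. IGFBP5 was at 483.2 and 551.9 CPM in Ctrl against 249.5 and 249.3 CPM in the knockdown. PRG2 was at 183.0 and 197.0 against 91.0 and 89.4 CPM. The first 4 fell, and IQGAP3, at -0.99 ± 0.19 (SE; edgeR adjusted p = 0.0808), did not pass. As with EGR1, none of the first 4 passed when knockdown 1 or knockdown 2 was left out (edgeR adjusted p between 0.349 for IGFBP5 and 0.808 for BHLHE40). These genes were picked for their likeness to EGR1 in the same libraries. That they fell and lost their calls as EGR1 did largely follows from that choice. With 4 libraries such likeness is a description only.

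Besides EGR1, DUSP5 passed without Ctrl 1 (-0.25; edgeR adjusted p = 0.0492) and without Ctrl 2 (-0.37; 0.00152). SPRY2 passed without Ctrl 2 (-0.31; edgeR adjusted p = 0.0263). With 1 Ctrl library left out the test passed 44% or 48.4% of all tested genes, so a call there is near the background. Once each library was corrected for transcript GC content, EGR1 passed with an edgeR adjusted p of 6.12e-05, where 28.3% of all tested genes passed. DUSP5 and SPRY2 joined it when that correction was combined with the block, where 38.2% passed. NAB2, DUSP4, DUSP6, SPRY1 and SPRED1 passed in none of the alternatives run, and DUSP4 was not tested with the filter of at least 5 CPM.

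**Figure D5:**
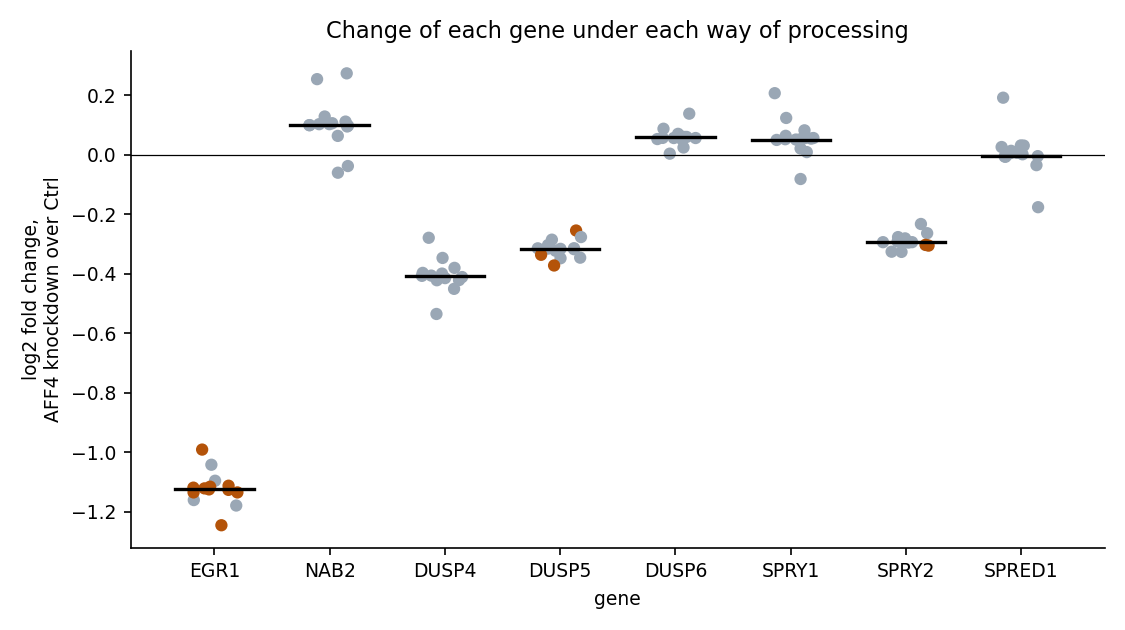
Log2 fold change of the 8 tested genes under each of up to 14 alternatives (points) and as reported (black bars). Orange marks an adjusted p under 0.05 in that alternative. EGR1 stays between -1.25 and -0.99, DUSP5 between -0.37 and -0.25 and SPRY2 between -0.33 and -0.23, while SPRED1 lies on both sides of 0.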

How the data were processed

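Poly(A) RNA of HEL cells was sequenced in 2 Ctrl and 2 AFF4 knockdown libraries, as strand-marking libraries amplified by PCR, per the labels' protocols. The authors deposited raw read counts for each gene symbol. The submitters' processing notes list featureCounts 1.6.1, HISAT2 2.1.0, fastp 0.13.1 and hg38 without role or order. The annotation, the strand setting and the handling of multi-mapped reads were not given in the sources used here. No entry for unassigned reads was present, and 0 columns were left unmatched to samples.

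The counts went into edgeR 4.0.16 (R 4.3.3): filterByExpr defaults (minimum count 10, minimum total 15), which left 13572 genes, TMM scaling, and a quasi-likelihood F test with the group as the only term, Benjamini-Hochberg adjusted over all tested genes. The SE is the absolute log2 fold change over the square root of F, and 95% intervals use the model's degrees of freedom. Scaling sets changes relative to the other genes; the median over all genes moved by at most 0.03 between scalings. The procedure was tested on simulated data. These had less spread between replicates than the real libraries and no GC effect, so they give no rate of detection for these data.

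The 10 genes and the 7 lists were chosen with earlier results of these data known. Named list genes are those that passed (up to 3 in each direction) or else the 3 with the smallest p. Other list genes were named as family members or context, after their values were seen. The 5 genes nearest to EGR1 were set by their distance. Not every gene taken this way is reported here. Positions, exonic length and GC content are from GENCODE 29 (GRCh38), with 25862 symbols matched by name, 80 through a synonym and 2161 unmatched. Promoters are from RefSeq (GRCh38.p14).

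Alternatives were scaling by library size, RLE or upper quartile, no filter, at least 5 CPM in 2 libraries, DESeq2 1.42.0, limma-voom (limma 3.58.1), the replicate number as a block, a GC correction (lowess, span 0.4) with and without the block, and each library left out. Where a group kept 1 library, that library is taken to vary like the other group.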

Additional observations from a re-analysis of the deposited data

How the results depend on the processing

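With 2 libraries a group few degrees of freedom remain, and counts of calls moved far with the processing; where not stated otherwise the cause was not tested. Genes called higher and lower over the whole table, 47 and 40 as reported, were 328 and 406 with no filter, 1 and 4 with the stricter filter, 185 and 212 in DESeq2, 1900 and 1937 with the GC correction, and 2584 and 2606 with the GC correction and replicate block. With 1 library left out they ranged from 35 to 3407 and from 11 to 3315. Of the 10 genes, 1 was called lower as reported, 0 with library-size scaling or the stricter filter, 3 with the GC correction and block, and 0 to 3 with 1 library left out. In all settings 0 were called higher. Pathway list genes called higher and lower, 0 and 1 as reported, were 1 and 5 with no filter and in DESeq2, 0 lower with the stricter filter, 9 and 26 with the GC correction, 11 and 30 with the GC correction and block, and 0 to 23 and 0 to 38 with 1 library left out.

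The median of the 8 tested genes, -0.15, was -0.12 with library-size scaling and -0.0351 with the stricter filter, where DUSP4 is not tested, and ranged from -0.23 to -0.14 with 1 library left out. AFF4 had -2.10 with the stricter filter and lost its call (adjusted p = 0.0552). EGR1 lost its call with library-size scaling (-1.10) and the stricter filter (-1.16), and ranged from -1.25 to -0.99 with 1 library left out. DUSP5 gained a call with the GC correction and block (-0.34), as did SPRY2 (-0.30). With 1 library left out DUSP5 ranged from -0.37 to -0.25, SPRY2 from -0.33 to -0.23, NAB2 from -0.0606 without Ctrl 1 to 0.27, SPRY1 from -0.0817 without Ctrl 2 to 0.21, SPRED1 from -0.18 to 0.19 and NAB1 from -0.21 to 0.15. SPRED1, at -0.01, turned positive with upper quartile scaling (0.0067), library-size scaling (0.0258), limma-voom (0.0014), the GC correction (0.0312) and the GC correction with block (0.0306). Under RLE and upper quartile scaling and limma-voom EGR1 kept its call.

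Replicate numbers are shared between groups by number only, as the labels tie them to no shared culture or day. Same-numbered libraries deviated together with a correlation of 0.285 across genes. With the replicate number as a block 408 genes were higher and 480 lower, of the pathway lists 2 and 7, and of the 10 genes EGR1 alone passed. SPRED1 had 0.0050 with the replicate block.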

Other observations

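The 8 tested genes span a wide range of transcript GC content, from 38.9% in SPRED1, 44.8% in SPRY1, 46.7% in DUSP6, 48.3% in SPRY2 and 51.3% in DUSP4 to 55.4% in EGR1, 55.9% in DUSP5 and 62.6% in NAB2. On the log2 CPM scale Ctrl 2 differed from Ctrl 1 by -0.36 in SPRED1, -0.28 in SPRY1, 0.00 in DUSP6, -0.02 in SPRY2, 0.25 in DUSP4, 0.26 in EGR1, -0.11 in DUSP5 and 0.34 in NAB2. Knockdown 2 differed from knockdown 1 by -0.03, -0.14, -0.16, -0.12, -0.12, 0.11, 0.02 and 0.27 in the same order. The difference was smaller between the knockdown libraries in 6 of these genes and larger in DUSP6 and SPRY2. Gene spans run from 3826 bases in EGR1 to 104924 bases in SPRED1, and AFF4 itself spans 88256 bases.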
